A study of Mus musculus with 6 samples.

Results

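The genes described here are 10 genes of the blood-brain barrier, Cldn5, Ocln, Tjp1, Cdh5, Pecam1, Slc2a1, Slc7a5, Mfsd2a, Slco1a4 and Abcb1a, out of the 31253 genes counted in 6 droplet single-cell RNA libraries of mouse hippocampus. They were chosen by symbol, as named junction and transport genes of brain endothelium, and all 10 were found in every library. The labels describe elderly mice that received air (Control, 3 libraries) or 2% sevoflurane, an inhaled general anaesthetic, for 6 h (Sevoflurane, 3 libraries), with the hippocampus taken 24 h later. Strain, sex and age in months are not given in the sources used here. The labels speak of 6 mice but do not tie a library to an animal, so a p-value here measures only how far the libraries spread, which may be technical. The tissue was digested with collagenase, frozen as a cell suspension and thawed before library preparation, per the labels. The 10x Genomics v3.1 kit reads transcripts from the 3′ end and marks each captured molecule with a barcode of its own, the unique molecular identifier (UMI), so that levels are counts of molecules.

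Endothelial cells of brain capillaries seal the gaps between them with tight junctions, in which the claudin Cldn5 and occludin (Ocln) span the membrane and the scaffold Tjp1 (ZO-1) ties them to actin. Adherens and platelet-endothelial contacts, formed by VE-cadherin (Cdh5) and Pecam1, hold the cells together below the seal. Because little passes between the cells, nutrients cross through carriers: Slc2a1 (GLUT1) for glucose, Slc7a5 (LAT1) for large neutral amino acids, and Mfsd2a for lysolipids that carry omega-3 fatty acids, which also holds back vesicle traffic. Slco1a4 exchanges organic anions, and the ATP-driven pump Abcb1a (P-glycoprotein) returns drugs to the blood. Canonical Wnt signalling from neural cells keeps this program on in brain endothelium.

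Promoter sequences are shown for the gene that passed the test in endothelial cells, Slc2a1, and for a transporter and a junction gene whose groups stood apart the other way, Slco1a4 and Tjp1. RefSeq promoter windows (GRCm38.p6) were found for 7 of the 10 genes. Each window covers up to 250 bases before a RefSeq start, 5′ to 3′ on the strand of the gene, and is cut short at any annotated exon base of the gene. Capitals mark matches to 4 motifs searched on both strands: the TATA box TATAAA, the GC box GGGCGG, the core of the hypoxia response element ACGTG and AGAACA, the core of a glucocorticoid receptor site. The Slc2a1 window is chr4:119108495-119108710 on the plus strand, the Slco1a4 window chr6:141856221-141856470 on the minus strand, and the Tjp1 window chr7:65371245-65371494 on the minus strand. The Tjp1 window lies inside the annotated gene (65296165 to 65527781), before an internal RefSeq start at 65371244, and not upstream of the whole gene.
Slc2a1: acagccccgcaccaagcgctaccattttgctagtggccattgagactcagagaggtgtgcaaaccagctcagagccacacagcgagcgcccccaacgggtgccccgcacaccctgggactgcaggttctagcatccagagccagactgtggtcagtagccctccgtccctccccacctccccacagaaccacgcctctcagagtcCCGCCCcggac
Slco1a4: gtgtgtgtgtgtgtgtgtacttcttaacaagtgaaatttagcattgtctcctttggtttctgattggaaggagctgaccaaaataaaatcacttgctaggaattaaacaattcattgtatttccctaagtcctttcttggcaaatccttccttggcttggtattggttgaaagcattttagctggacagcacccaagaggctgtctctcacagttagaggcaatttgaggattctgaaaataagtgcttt
Tjp1: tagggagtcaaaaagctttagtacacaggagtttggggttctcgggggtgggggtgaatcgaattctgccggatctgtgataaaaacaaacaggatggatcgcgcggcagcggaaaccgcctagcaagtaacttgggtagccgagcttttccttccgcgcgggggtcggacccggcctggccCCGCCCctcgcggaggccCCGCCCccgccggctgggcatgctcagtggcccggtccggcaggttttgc
The Slc2a1 window, 216 bases with 63.89% G or C, held 1 GC box, in reverse complement, and none of the other motifs. The Tjp1 window held 2 GC boxes at 63.2% G or C, while the Slco1a4 window held none of the 4 motifs at 39.2% G or C. Over 27025 mouse promoters of 250 bases, 32.9% held a GC box, 13% a TATA box, 16.6% ACGTG and 16.2% AGAACA. A match is only a run of letters, and its absence says nothing about binding of a factor.

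The 6 libraries held 54426522 to 70741809 UMIs in 7068 to 9795 cell barcodes, and 46876 cells were kept after filtering. No pair of libraries shared more than 0.333% of its barcodes. Sex-linked RNA set Sevoflurane 1 apart from the 5 other libraries, in CPM (counts scaled by the UMI total). Xist, which coats a silenced X chromosome, was at 1395 CPM there and at 0.523 to 1.31 elsewhere. Ddx3y, from the Y chromosome, was at 0.316 there and at 44.4 to 58.1 CPM elsewhere. The effect of sex on the results was not tested. For some of the genes, but not all, results are also given without this library. Choroid plexus cells, which secrete cerebrospinal fluid, numbered 59, 16 and 97 in the Control libraries and 0, 1 and 0 in the Sevoflurane libraries.

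Endothelial-like cells, called endothelial below, were named from 12 markers such as Flt1, Tek and Kdr, with the 10 barrier genes and 162 further barrier genes kept out of clustering and naming so that they could be tested. There were 643 such cells, 158, 70 and 89 in the Control libraries and 42, 115 and 169 in the Sevoflurane libraries. Their share of kept cells was 1.50 ± 0.783% (mean ± SD, n = 3) in Control libraries and 1.33 ± 0.812% (n = 3) after sevoflurane. This difference lay within the spread of the libraries (two-sided exact permutation p = 0.8, where 3 against 3 cannot go below 0.1). The sign of this difference turned without Control 1 (0.259 percentage points) and without Sevoflurane 1 (0.253). The 12 markers, which named the class and are therefore no check of its label, were detected in every library, with a summed level of 10867 to 13058 CPM in Control and 11198 to 13298 CPM in Sevoflurane.

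Markers of other cells were also counted in the endothelial sums. The 12 mural (pericyte and smooth muscle) markers summed to 5266 to 6937 CPM in Control and 4889 to 5297 CPM in Sevoflurane, and 1 of them was at 0 in Sevoflurane 1. The 12 neuron markers summed to 1915 to 2900 and 2354 to 3524 CPM, with none at 0, and the 9 choroid plexus markers to 96.0 to 666 and 17.2 to 23.3 CPM, with 2 or 3 at 0 in each Control and 4 to 7 at 0 in each Sevoflurane library. Most of the mural signal lay in 1 sub-cluster of 216 cells, led by Rgs5 and Flt1, whose cells had a median of 5526 UMIs and 7897 CPM of mural markers. The part of mural RNA in the results was not tested apart from repeating them without these cells, which left 17 cells in the smallest library.

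All 10 genes were higher in endothelial cells than in any of the other 6 classes with enough cells in every library (ependymal cells, astrocytes, oligodendrocyte precursors, oligodendrocytes, microglia and neurons). The classes were set by other genes of the same cells, so these levels are a description, with no test. Slc2a1 had the highest endothelial level, 2532 ± 674 CPM (mean ± SD over 6 libraries), followed by Slco1a4 at 1832 ± 432 CPM and Tjp1 at 1127 ± 270 CPM. These are UMI levels from transcript ends, which carry no correction for how well each end is captured, so the order between genes is approximate. Cldn5 stood at 932 ± 312, Slc7a5 at 821 ± 158, Abcb1a at 807 ± 178 and Pecam1 at 621 ± 120 CPM, with overlapping ranges over the libraries. Cdh5 at 284 ± 44.1, Ocln at 262 ± 45.2 and Mfsd2a at 200 ± 58.5 CPM were the lowest, again with overlapping ranges.

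**Figure D1:**
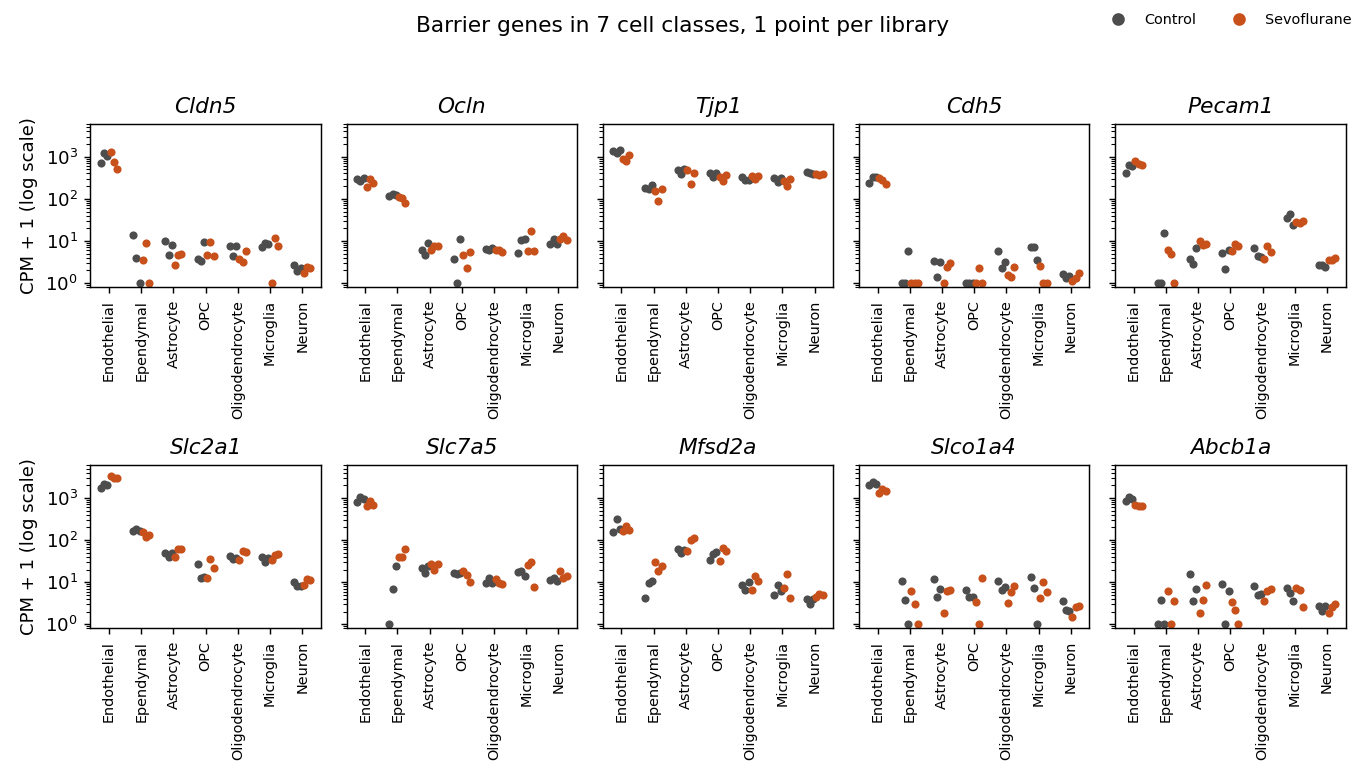
CPM + 1 on a log axis for the 10 barrier genes in 7 cell classes, with 1 point per library, grey for Control and orange for Sevoflurane. Each gene is highest in endothelial cells; Tjp1 is spread over all classes, while Slco1a4, Cldn5, Abcb1a and Cdh5 stay near the bottom of the axis elsewhere.

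Outside endothelium the genes differed in how far they spread. Tjp1, a scaffold of many kinds of cell contact, stood at 419 ± 107 CPM in astrocytes, 394 ± 18.2 in neurons, 354 ± 58.5 in oligodendrocyte precursors and 312 ± 28.5 in oligodendrocytes. Those levels overlapped between neighbours in that order, and microglia (270 ± 42.3) and ependymal cells (161 ± 42.6) were the lowest. Ocln was second highest in ependymal cells, at 111 ± 17.0 CPM, and at most 16.6 CPM in the 5 remaining classes. Slc2a1 was also second highest in ependymal cells, at 151 ± 23.5 CPM, ahead of astrocytes (48.5 ± 9.49), oligodendrocytes (42.2 ± 9.08) and microglia (37.6 ± 5.93), whose ranges overlapped. Mfsd2a had 71.6 ± 25.0 CPM in astrocytes and 46.5 ± 12.9 in oligodendrocyte precursors, and Pecam1, also an adhesion molecule of blood cells, had 30.6 ± 7.57 in microglia. Slc7a5 stood at 28.4 ± 23.3 CPM in ependymal cells and 21.7 ± 4.27 in astrocytes, with overlapping ranges. Cldn5, Cdh5, Slco1a4 and Abcb1a had means of at most 6.53 CPM in each of the 6 other classes.

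The share of the transcripts of a gene that endothelial cells held followed the number of cells as well as the level. Endothelial cells, which were 643 of 46876 kept cells, held 84.8% of all Slco1a4 UMIs, 79.4% of Cldn5, 71.7% of Abcb1a, 67.9% of Cdh5, 64.0% of Pecam1 and 60.0% of Slc2a1. They held 35.8% of Slc7a5, 18.8% of Mfsd2a, 15.4% of Ocln and 2.53% of Tjp1. Neurons held 63.9% of Tjp1, 40.7% of Slc7a5 and 40.3% of Ocln, and astrocytes held 30.3% of Mfsd2a. In fibroblast-like cells lay 10.96% of Cdh5, and in choroid plexus cells 2.52% of Slco1a4 and 1.72% of Ocln. Over all kept cells, most Slco1a4 and Cldn5 UMIs thus lay in endothelium and most Tjp1 UMIs in neurons.

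**Figure D2:**
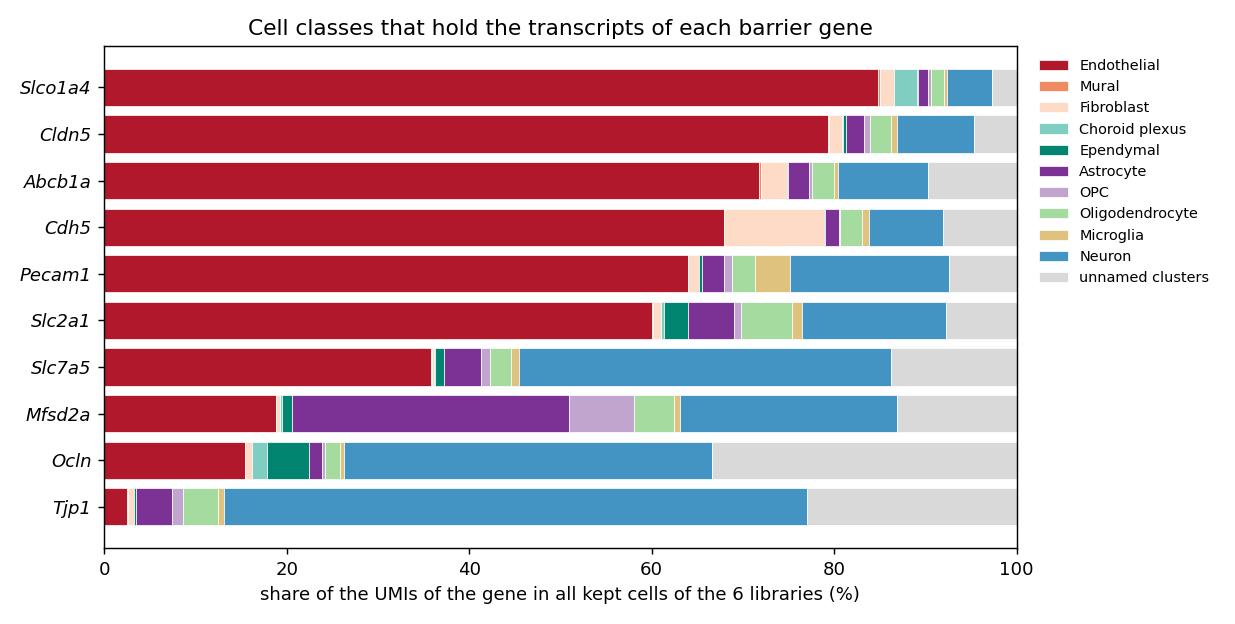
Share (%) of the UMIs of each barrier gene, over all kept cells of the 6 libraries, that lay in each cell class; grey is the part in unnamed clusters. The endothelial part runs from 84.8% for Slco1a4 to 2.53% for Tjp1.

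Detection per cell gave the same picture as the levels. With each cell thinned to 1500 UMIs, which kept 589 of 643 endothelial cells and 2984 of 3000 sampled neurons, 86.4% of endothelial cells had a Slc2a1 UMI against 1.37% of neurons. For Slco1a4 the values were 84.6% and 0.369%, and for Cldn5 55.2% and 0.235%. Unthinned, at median depths of 3120 UMIs in endothelial cells and 9202 in neurons, they were 91.6% and 8.5% for Slc2a1, 91.0% and 1.07% for Slco1a4, and 69.5% and 1.27% for Cldn5. Free RNA from broken cells can enter any droplet. It was neither measured nor corrected, so its part in the neuron values was not tested. Tjp1 was detected in 74.0% of endothelial cells and 41.6% of neurons after thinning.

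The genes varied within endothelium. Among the sub-clusters, the 14 cells led by Eln, Mgp and Bmx, genes known from arteries, had 1687 CPM of Pecam1 but no UMI of Mfsd2a or Slc7a5, which allows up to 92.0 CPM. The 38 cells with Il1r1 and Vwf, genes known from veins, among their leading genes had 118 CPM of Cldn5, 167 of Slc7a5 and 29.6 of Mfsd2a, the last from 3 UMIs. The 192 cells led by Flt1 and Adgrl4 had 962, 1128 and 225 CPM of these 3 genes and 2885 CPM of Slc2a1. Tjp1 had the narrowest range in proportion, from 828 to 1328 CPM over the 6 sub-clusters. The venous-type cells numbered 18 in Control and 20 in Sevoflurane, the arterial-type cells 13 and 1. Since all genes of these cells went into the sums, the part of this unequal make-up in the results below was not tested.

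The study compared the libraries to see what differed in old hippocampus a day after the anaesthetic. In endothelial cells, Slc2a1, the glucose carrier, rose after sevoflurane. It had 1728, 2129 and 1982 CPM in the Control libraries and 3404, 2913 and 3038 CPM in the Sevoflurane libraries, so every Sevoflurane library lay above every Control library. The log2 fold change was 0.70 (SE 0.17, 95% interval 0.34 to 1.07), a 1.63-fold rise, with an adjusted p of 0.0367 (edgeR quasi-likelihood test on UMIs summed per library, Benjamini-Hochberg adjusted over all 7632 genes tested). It was the only one of the 10 genes called at an adjusted p under 0.05, at a background of 2.53% of all genes called and 1.36% called higher. With the cells of each group pooled over libraries and thinned to 1500 UMIs, 80.9% of 293 Control and 91.9% of 296 Sevoflurane cells had a Slc2a1 UMI. Cells are not replicates and the counts are the same ones, so these shares are a description and no further support.

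The Slc2a1 difference kept its size but not its call when a library was left out. Leaving out a library gave log2 fold changes of 0.62 to 0.77, all higher in Sevoflurane, but the call was lost without Control 1 (edgeR adjusted p = 0.123), Control 3 (0.155), Sevoflurane 1 (0.0680), Sevoflurane 2 (0.0929) and Sevoflurane 3 (0.0684), and kept without Control 2 (0.0177). Without the sub-cluster rich in mural markers the log2 fold change was again 0.70, with an adjusted p of 0.177. DESeq2 called it (adjusted p = 0.00944).

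**Figure D3:**
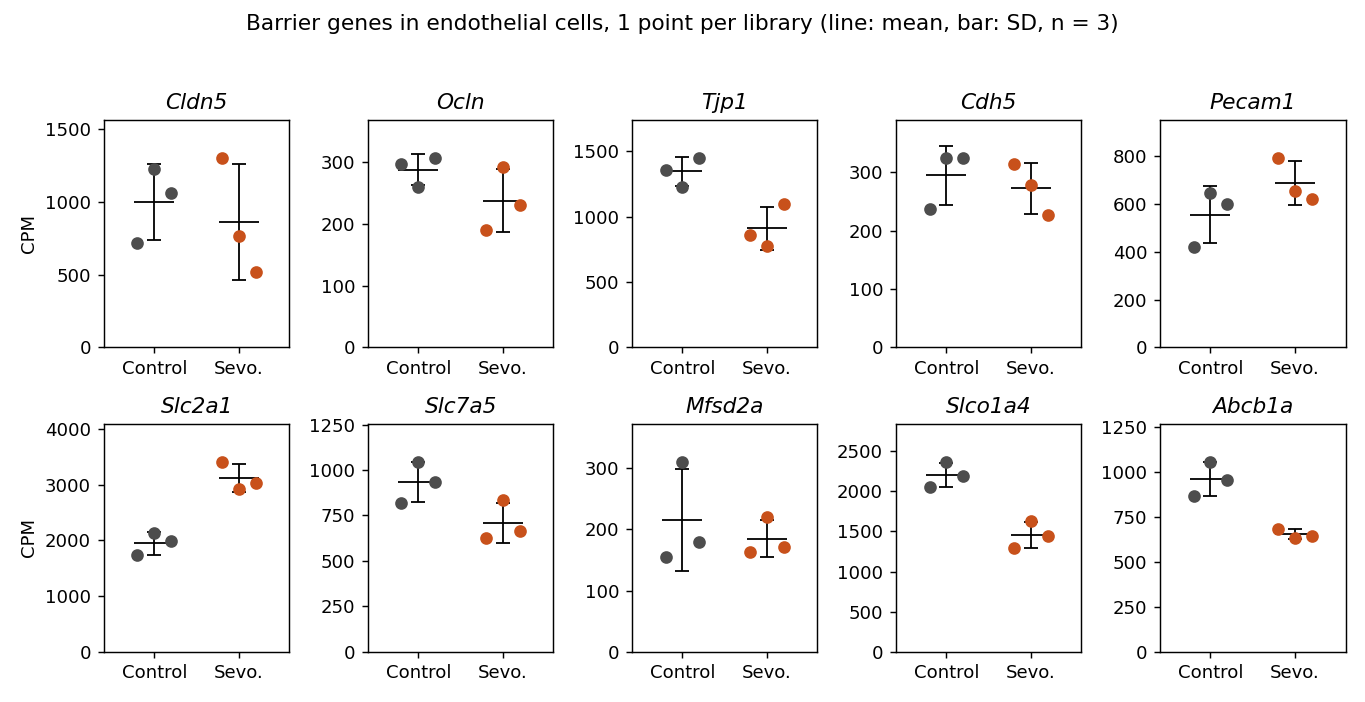
Endothelial CPM of each barrier gene, with 1 point per library, the group mean as a line and the SD as a bar (n = 3 each). Slc2a1 sits between 2913 and 3404 CPM in Sevoflurane, above all Control libraries, while Tjp1, Slco1a4 and Abcb1a sit below theirs and the other 6 genes overlap.

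Of the 5 junction and adhesion genes 0 passed the test in endothelial cells with edgeR or with DESeq2, and 1, Tjp1, had an unadjusted p under 0.05 (edgeR, 0.0084), as did 13.7% of all genes. Tjp1 had 1359, 1226 and 1448 CPM in Control and 861, 773 and 1095 CPM in Sevoflurane. The groups did not overlap, and the log2 fold change was -0.54 (SE 0.18, 95% interval -0.92 to -0.16, edgeR adjusted p = 0.144). In all, 1 of the 10 genes lay higher and 3 lower in every Sevoflurane library than in every Control library, against 18.9% of all tested genes with such a gap, 8.96% higher and 9.96% lower.

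Cldn5, the main claudin of the barrier, had 718, 1226 and 1059 CPM in Control and 1304, 769 and 516 CPM in Sevoflurane, which places both its highest and its lowest library in the Sevoflurane group. Its log2 fold change was -0.20 with a 95% interval of -0.78 to 0.38 (edgeR adjusted p = 0.823). It was -0.64 (adjusted p = 0.185) without Sevoflurane 1, which held the highest level, and 0.082 (0.941) without Sevoflurane 3, which held the lowest. The interval is wide enough to hold a fall as large as the rise of Slc2a1, and the level in Sevoflurane alone ran from 516 to 1304 CPM, on 303 to 399 Cldn5 UMIs per library.

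Ocln had 296, 258 and 306 CPM in Control and 189, 291 and 230 CPM in Sevoflurane, with overlapping groups. Its log2 fold change was -0.24 (95% interval -0.65 to 0.16, edgeR adjusted p = 0.648). The adhesion genes overlapped between the groups too. Cdh5 had 237, 325 and 324 CPM in Control and 314, 278 and 227 CPM in Sevoflurane, a log2 fold change of -0.11 (95% interval -0.53 to 0.32, edgeR adjusted p = 0.885). Pecam1 had 419, 645 and 599 CPM in Control and 792, 653 and 619 CPM in Sevoflurane, with its highest level in Sevoflurane 1. Its log2 fold change was 0.33 (95% interval -0.087 to 0.75, edgeR adjusted p = 0.504). With a library left out it ran from 0.16 to 0.46, and it shrank to 0.049 (0.975) without the sub-cluster rich in mural markers.

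Of the other transporters, the efflux and anion carriers stood lower without passing the test. Slco1a4 had 2060, 2365 and 2188 CPM in Control and 1300, 1629 and 1449 CPM in Sevoflurane, with no overlap. Its log2 fold change was -0.57 (SE 0.17, 95% interval -0.93 to -0.22, edgeR adjusted p = 0.0827), and it was -0.51 (0.152) without Sevoflurane 1 and -0.81 (0.125) without the sub-cluster rich in mural markers. DESeq2 called it, at an adjusted p of 0.0493. Choroid plexus cells gave more marker RNA in the Control sums, as stated above. Their own Slco1a4 level was 164, 258 and 201 CPM in the Control libraries, on 47, 20 and 94 UMIs. That is below the endothelial level of every library. The part of choroid plexus RNA in the result was not tested.

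Abcb1a had 867, 1056 and 956 CPM in Control and 684, 635 and 643 CPM in Sevoflurane, with no overlap either. Its log2 fold change was -0.53 (SE 0.17, 95% interval -0.90 to -0.17, edgeR adjusted p = 0.123), and -0.58 (0.124) without Sevoflurane 1. Abcb1a and Slco1a4 belong to families with near-identical copies whose reads the counting could split, so both values are uncertain to that extent. The copy Abcb1b had a mean of 7.23 CPM in endothelial cells and was too low to be tested.

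Slc7a5 had 821, 1043 and 936 CPM in Control and 628, 833 and 665 CPM in Sevoflurane, where only the highest Sevoflurane library passed the lowest Control library. The log2 fold change was -0.37 (95% interval -0.75 to 0.0071, edgeR adjusted p = 0.374). Mfsd2a had 155, 310 and 180 CPM in Control and 164, 220 and 171 CPM in Sevoflurane, a log2 fold change of -0.18 (95% interval -0.68 to 0.33, edgeR adjusted p = 0.818). It was 0.17 (0.815) without Control 2, the library that stood highest. Over the 10 genes the median log2 fold change was -0.22, beside 0.0059 over all genes tested.

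In GRCm38, Slc2a1 lies on chromosome 4 from 119108711 to 119137983, Slco1a4 on chromosome 6 from 141805440 to 141856199, Abcb1a on chromosome 5 from 8660077 to 8748575 and Tjp1 on chromosome 7 from 65296165 to 65527781, in the GENCODE annotation. The build used for counting is not given in the sources used here. Slc2a1, Abcb1a and Tjp1 overlap annotated transcripts on both strands, and Slc7a5 and Cdh5 overlap a transcript on the opposite strand. The strand setting of the counting is not given in the sources used here either, so reads of such neighbours cannot be told apart from those of the gene.

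The lists of further barrier genes placed these values among their neighbours. Of 39 other transporters and receptors, 34 were tested and 4 were called, all lower (edgeR, Benjamini-Hochberg over all genes, at a background of 1.17% called lower). The median log2 fold change of the tested genes was -0.29, beside 0.0059 over all genes. Slc39a10, a zinc importer, had 674, 898 and 622 CPM in Control and 237, 338 and 357 CPM in Sevoflurane, and fell by 1.20 on the log2 scale (SE 0.20, adjusted p = 0.0032). The drug pump Abcg2 (BCRP) had 754, 824 and 774 CPM in Control and 383, 451 and 480 CPM in Sevoflurane, and fell by 0.81 (SE 0.17, edgeR adjusted p = 0.0171). Abcc4 (MRP4), which exports organic anions and cyclic nucleotides, fell by 0.81 (SE 0.19, edgeR adjusted p = 0.0331), from 748 ± 96.4 to 419 ± 90.9 CPM.

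Of these 3 calls, that of Slc39a10 held without each library in turn. That of Abcg2 was lost without Control 3 (edgeR adjusted p = 0.0829) and Sevoflurane 2 (0.0882). That of Abcc4 was lost without Control 1 (0.108), Control 3 (0.149), Sevoflurane 1 (0.0726) and Sevoflurane 2 (0.168). The most abundant transporters of the list that were not called were Bsg, the chaperone of monocarboxylate carriers, at 3280 ± 957 and 3013 ± 911 CPM, Slc6a6, the taurine carrier, at 1218 ± 254 and 1370 ± 102 CPM, and Slco1c1, a thyroxine carrier, at 1416 ± 412 and 920 ± 160 CPM (log2 fold changes -0.10, 0.19 and -0.60, edgeR adjusted p = 0.917, 0.717 and 0.162).

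Of 32 further junction genes, 24 were tested and 1 rose, at a background of 1.36% of all genes called higher. Their median log2 fold change was 0.18, beside 0.0059 over all genes. The 1 was Vcl (vinculin), which links junctions and integrins to actin, with 130, 135 and 103 CPM in Control and 521, 209 and 203 CPM in Sevoflurane (log2 fold change 1.28, SE 0.31, edgeR adjusted p = 0.0334). Its level in Sevoflurane 1 was the highest by far. The log2 fold change was 0.74 (adjusted p = 0.0699) without that library, and the call was also lost without Control 1 (0.0873) and Control 3 (0.141). The most abundant junction genes that were not called were the catenin genes Ctnnb1 (595 ± 130 and 469 ± 64.5 CPM) and Pkp4 (491 ± 45.2 and 405 ± 123 CPM) and the polarity gene Pard3 (508 ± 74.2 and 419 ± 101 CPM), with edgeR adjusted p of 0.512 to 0.684.

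Among 26 genes of Wnt signalling and barrier formation, 25 were tested and 2 fell, at a background of 1.17% of all genes called lower, with a median log2 fold change of -0.30. Znrf3, a ubiquitin ligase that removes Wnt receptors and is itself a Wnt target, fell by 0.99 (SE 0.22, edgeR adjusted p = 0.0223), from 157, 145 and 188 CPM to 64.6, 66.7 and 101 CPM. The Znrf3 call was lost without Control 1 (0.0651), Control 3 (0.117), Sevoflurane 1 (0.0530) and Sevoflurane 2 (0.114). Lef1, the nuclear partner of beta-catenin, had 923 ± 15.5 and 612 ± 62.1 CPM and did not pass (log2 fold change -0.57, SE 0.17, edgeR adjusted p = 0.0858), nor did Apcdd1, a Wnt inhibitor, at 466 ± 106 and 314 ± 33.0 CPM (adjusted p = 0.181).

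Of 15 genes of transcytosis and leak, only 7 were abundant enough to be tested, and 1 rose, beside 1.36% of all genes. Plvap, which marks fenestrated and leaky vessels, was among the untested, with a mean of 7.07 CPM. Ehd2, which holds caveolae at the membrane, had 77.6 ± 15.4 CPM in Control and 140 ± 13.5 CPM in Sevoflurane and rose (log2 fold change 0.87, SE 0.22, edgeR adjusted p = 0.0398). Its call was lost whichever of the 6 libraries was left out (edgeR adjusted p = 0.0537 to 0.177). The caveolar genes Cav1 (161 ± 27.4 and 113 ± 51.5 CPM), Cavin1 (247 ± 14.1 and 196 ± 31.8 CPM) and Cavin2 (250 ± 36.0 and 229 ± 45.1 CPM) did not pass (edgeR adjusted p = 0.543, 0.481 and 0.862).

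Of 24 genes listed under endothelial activation, 12 were tested and 3 rose, beside 1.36% of all genes called higher, with a median log2 fold change of 0.34. The list also holds flow-responsive and glucocorticoid-induced genes, so its median is no measure of activation. Klf4, a flow-responsive transcription factor, had 179, 347 and 249 CPM in Control and 1153, 587 and 561 CPM in Sevoflurane (log2 fold change 1.59, SE 0.28, edgeR adjusted p = 0.0048). Sgk1, a kinase induced by glucocorticoids, had 83.2, 86.1 and 100.3 CPM in Control and 280, 211 and 157 CPM in Sevoflurane (log2 fold change 1.24, SE 0.23, edgeR adjusted p = 0.0077). Edn1, which encodes the vasoconstrictor endothelin-1, had 35.2, 36.9 and 59.1 CPM in Control and 232, 129 and 91.9 CPM in Sevoflurane (log2 fold change 1.73, SE 0.33, edgeR adjusted p = 0.0087). All 3 were highest in Sevoflurane 1, and without that library they were still called, at log2 fold changes of 1.17, 1.03 and 1.35. The Edn1 call was lost without Control 1 (edgeR adjusted p = 0.0536). The most abundant activation genes that were not called were Cxcl12 (1134 ± 489 and 1067 ± 352 CPM), Klf2 (666 ± 174 and 1156 ± 460 CPM) and Nfkbia (472 ± 56.7 and 560 ± 46.0 CPM). Their log2 fold changes were -0.066, 0.81 and 0.27 (edgeR adjusted p = 0.957, 0.113 and 0.565). The leukocyte adhesion genes Icam1, Vcam1, Sele and Selp were not tested, with means of 15.8, 23.4, 0.410 and 0 CPM.

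Of 27 genes that tie endothelium to mural cells and matrix, 25 were tested, 3 rose and 1 fell (backgrounds 1.36% and 1.17%), with a median log2 fold change of 0.34. The basement membrane collagens rose: Col4a2 from 224, 293 and 229 CPM to 564, 531 and 603 CPM (log2 fold change 1.21, SE 0.19, edgeR adjusted p = 0.0021) and Col4a1 from 321 ± 46.7 to 666 ± 210 CPM (1.07, SE 0.23, 0.0165). Smad6, an inhibitor of bone morphogenetic protein signalling, had 71.6 ± 16.7 CPM in Control and 169 ± 18.0 CPM in Sevoflurane and rose as well (log2 fold change 1.23, SE 0.22, edgeR adjusted p = 0.0046). The Notch ligand gene Jag1 fell by 1.05 (SE 0.25, edgeR adjusted p = 0.0332), from 96.3 ± 20.7 to 46.5 ± 5.95 CPM. The Col4a1 call was lost without Control 1 (0.0828) and Control 3 (0.0870), and the Jag1 call without Control 1, Control 2, Sevoflurane 2 and Sevoflurane 3 (0.0689 to 0.139). The most abundant genes of this list that were not called were Id1 (678 ± 183 and 994 ± 596 CPM), S1pr1 (452 ± 68.1 and 621 ± 61.3 CPM) and Itga6 (451 ± 50.3 and 576 ± 146 CPM). Their log2 fold changes were 0.57, 0.48 and 0.36 (edgeR adjusted p = 0.452, 0.221 and 0.469). The mural markers in the same sums, at 5266, 6937 and 5433 CPM in Control and 5091, 5297 and 4889 CPM in Sevoflurane, overlapped between the groups.

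**Figure D4:**
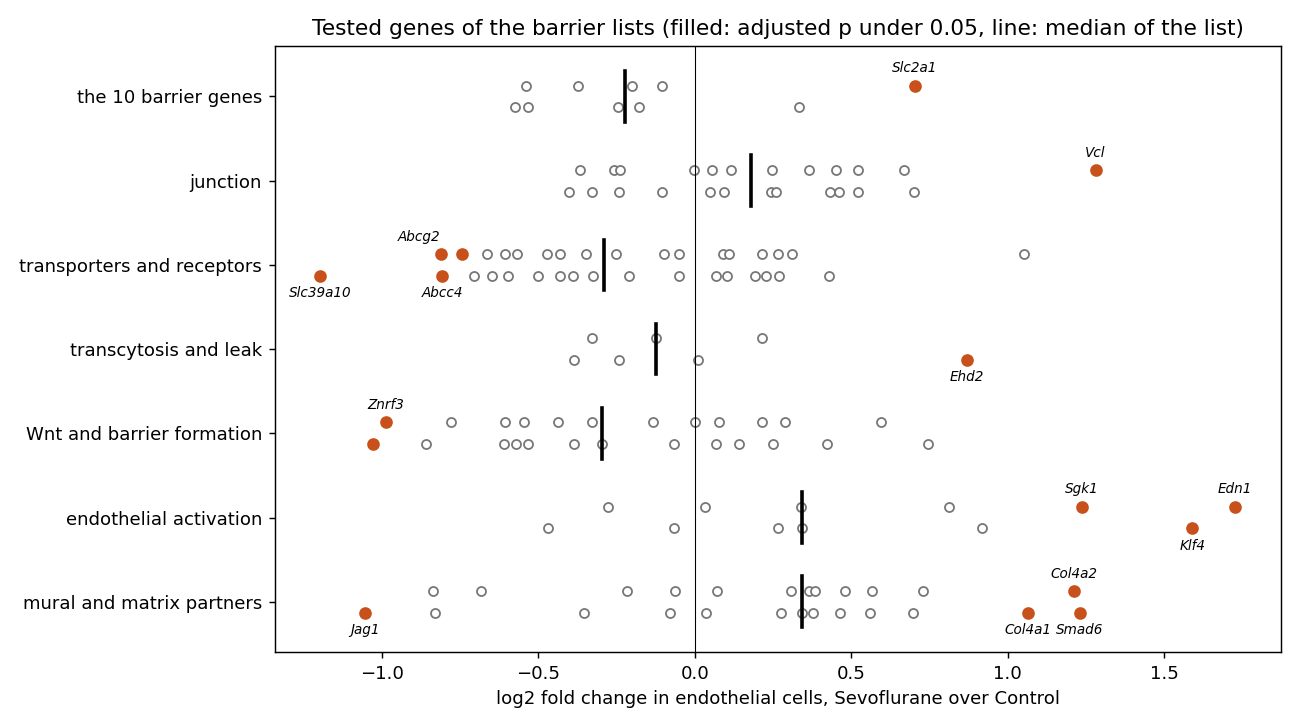
Log2 fold change in endothelial cells, Sevoflurane over Control, for every tested gene of the 10 barrier genes and of 6 further lists; filled points passed an adjusted p of 0.05, those described in the text carry their names, and vertical lines are medians. The medians run from -0.30 for Wnt and barrier formation to 0.34 for activation and for mural and matrix partners.

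Over the 6 lists 15 of 126 different genes tested were called, at a background of 2.53%. The lists were chosen with earlier results of these data known, so this count is a description and no support for an excess. Without the sub-cluster rich in mural markers, where 39 of 4304 genes were called in all (0.906%), 2 of the 15 were called, Klf4 (edgeR adjusted p = 0.0193) and Col4a2 (0.0362), in a fit with 17 cells in its smallest library. Leaving out a library gave 6 calls without Control 1, 8 without Control 3 and 8 without Sevoflurane 2. It gave 10, 12 and 16 without Sevoflurane 1, Sevoflurane 3 and Control 2. In the same fits 82 to 236 of all genes were called, a count whose share of the genes tested is not given here.

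The 10 genes were also tested in the other classes. In ependymal cells, the ciliated lining of the ventricles, Slc7a5 rose from 0, 2 and 5 UMIs in Control to 15, 20 and 24 UMIs in Sevoflurane, or from 0, 5.72 and 23.5 CPM to 39.2, 39.6 and 62.1 CPM. The log2 fold change was 2.43 (SE 0.57, edgeR adjusted p = 0.0435), and it was 1 of 4 barrier genes tested there, at a background of 0.568% called and 0.388% called higher. With 0 to 5 UMIs in the Control libraries the size of this fold change is poorly fixed. Ependymal Slc7a5 passed the filter on low counts only through the Sevoflurane libraries, where it was high. The call is therefore no independent support for a rise. The call was lost without Control 1 (0.282), Control 2 (0.429), Sevoflurane 2 (0.0700) and Sevoflurane 3 (0.242), and with DESeq2 (0.191), and it was kept without Sevoflurane 1 (0.0154) and Control 3 (0.00822). The other 3 were not called there, 2 of them without overlap between the groups (6.88% of all genes were lower in this way): Slc2a1 with 162, 183 and 160 CPM in Control and 152, 117 and 132 CPM in Sevoflurane (log2 fold change -0.38, SE 0.21, adjusted p = 0.591), Ocln with 116, 129 and 122 CPM and 112, 105 and 80.2 CPM (-0.33, SE 0.23, 0.699), and Tjp1 (-0.50, SE 0.24, 0.501).

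In neurons all 10 genes were tested and 0 were called by edgeR, at a background of 3.27% of genes called. By DESeq2 1 was called, but the share of all genes that DESeq2 called is not given here, so this count has no background. In edgeR 2 had an unadjusted p under 0.05, as 19.8% of all genes did. Tjp1 had 424, 403 and 396 CPM in Control and 380, 374 and 385 CPM in Sevoflurane, a narrow difference without overlap, which 5.03% of genes showed in this direction (log2 fold change -0.23, SE 0.05, edgeR adjusted p = 0.0630). It passed with DESeq2 (0.00483) and with a class set for each cell by its markers (edgeR 0.0468). In astrocytes 8 genes were tested and 0 were called by edgeR (background 1.92%) or DESeq2, while 2 had an unadjusted p under 0.05 in edgeR (background 14.5%). Mfsd2a had 62.1, 48.6 and 57.6 CPM in Control and 55.0, 97.9 and 108 CPM in Sevoflurane there, so that Sevoflurane 1 lay among the Control libraries. Its log2 fold change was 0.59 (SE 0.19, edgeR adjusted p = 0.156), and 0.79 (0.00795) without Sevoflurane 1. Astrocyte Tjp1 had its lowest level, 224 CPM, in Sevoflurane 2, against 390 to 512 CPM in the other libraries (log2 fold change -0.38, SE 0.22, edgeR adjusted p = 0.472).

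In oligodendrocytes 9 genes were tested, in oligodendrocyte precursors 4 and in microglia 3. By edgeR and by DESeq2 0 of them were called in these classes (edgeR adjusted p of at least 0.441, 0.378 and 0.767), at backgrounds of 0.522%, 0.163% and 0.346%. At an unadjusted p under 0.05 the counts were 0, 1 and 0, at backgrounds of 13.1%, 9.89% and 9.45%. Slc2a1 was not called in any class but endothelium. Its log2 fold change was 0.17 (SE 0.17) in astrocytes, 0.20 (SE 0.18) in oligodendrocytes, 0.20 (SE 0.27) in microglia and 0.18 (SE 0.16) in neurons.

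**Figure D5:**
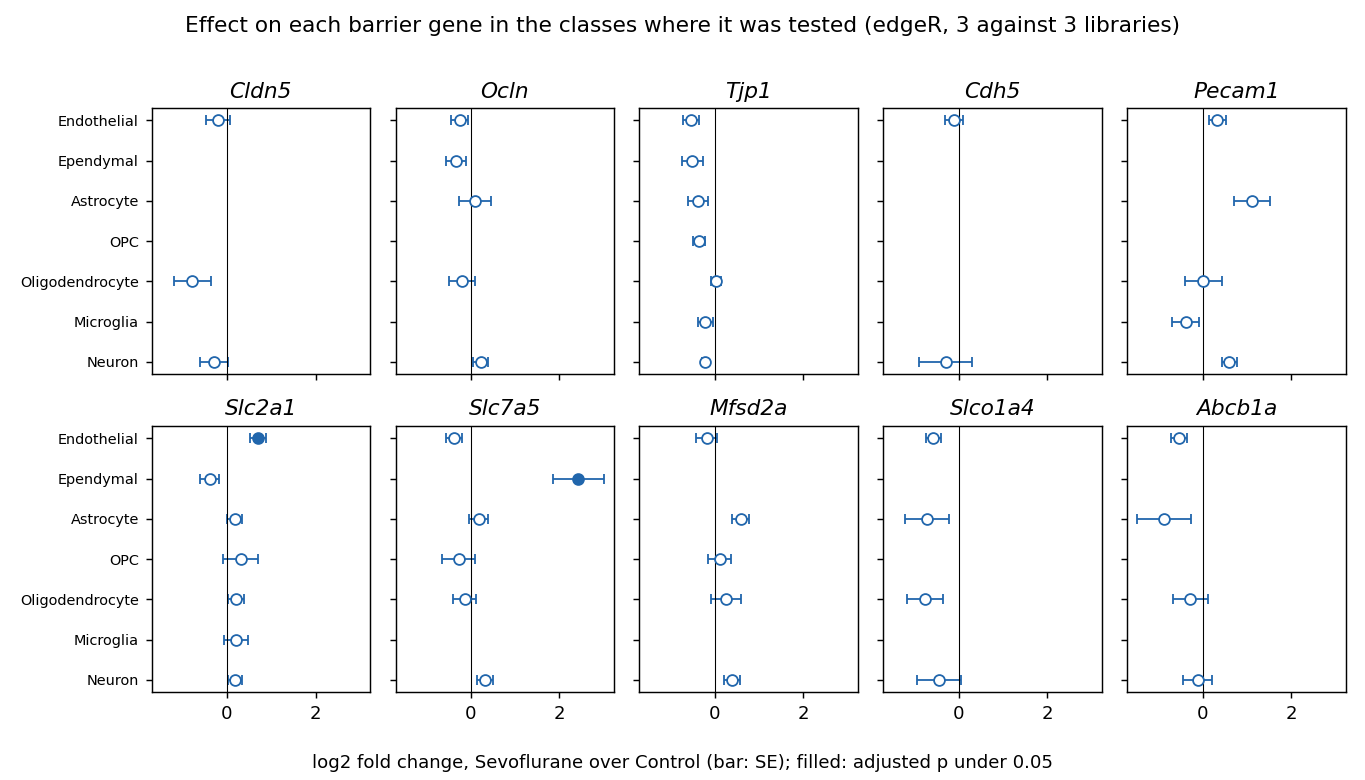
Log2 fold change, Sevoflurane over Control, with its SE as a bar, for each barrier gene in each class where it was abundant enough to be tested; filled points passed an adjusted p of 0.05. Slc2a1 in endothelial cells (0.70) and Slc7a5 in ependymal cells (2.43) are filled, and the effect of Tjp1 lies below 0 in 6 of its 7 classes, with oligodendrocytes at 0.03.

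Whether an effect in endothelium differed from that in another class was tested as an interaction with the library as a block, for each of the 6 other classes. The Slc2a1 effect was higher in endothelial than in ependymal cells by 1.09 (SE 0.28, edgeR adjusted p = 0.0480), and the Slc7a5 effect was lower by 2.80 (SE 0.56, edgeR adjusted p = 0.00808), at a background of 0.468% of 9402 genes. The Slc2a1 difference was kept without Sevoflurane 1 (1.13, adjusted p = 0.0466) and lost whichever of the other 5 libraries was left out (0.107 to 0.213). The Slc7a5 difference was lost without Control 1 (-2.27, 0.0816) only. Against astrocytes, neurons and oligodendrocytes the Slc2a1 effect differed by 0.55 (SE 0.27), 0.53 (SE 0.27) and 0.53 (SE 0.26), which did not pass (edgeR adjusted p = 0.453, 0.538 and 0.523, at backgrounds of 1.08%, 1.27% and 0.774%). Against microglia and oligodendrocyte precursors it differed by 0.49 (SE 0.34) and 0.40 (SE 0.47), which did not pass either (edgeR adjusted p = 0.704 and 0.866, at backgrounds of 0.636% and 0.435%). The rise of Slc2a1 was thus not shown to be particular to endothelium.

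The genes whose level followed the mean of the 10 most closely, over 42 points of 7 classes in 6 libraries, were Dipk2b (Pearson r = 0.978), Slc52a3 (0.976), Igfbp7 (0.975), Cxcl12 (0.974) and 1700018A04Rik (0.972), on log2(CPM + 1). The points share libraries and class differences, so these are descriptions. Slc52a3, a riboflavin carrier, stood at 35.9 CPM in endothelial cells, and Igfbp7 and Cxcl12, both secreted, at 1103 and 1101 CPM. The 10 genes themselves ran from 0.729 for Ocln to 0.964 for Abcb1a against that mean, which contains them.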

How the data were processed

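UMI counts of 3 Control and 3 Sevoflurane libraries were used. The authors deposited raw counts per gene and cell barcode, and the file headers name Cell Ranger 6.1.1. The submitters' processing notes list CASAVA 1.8, Cell Ranger and Seurat without their roles. Build, annotation and strand setting are not given in the sources used here. The 10 genes, the gene lists and the markers were chosen with earlier results of these data known.

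Cells needed 500 UMIs, 300 genes and no more than 20% mitochondrial UMIs, and the highest Scrublet scores (scanpy 1.11.5) were removed at 0.8% per 1000 cells, 5.64% to 7.81% of a library. Clusters came from 2000 variable genes, 30 principal components, 15 neighbours and Leiden resolution 1, with no integration and without the 172 barrier genes. Clusters were named by marker scores (at least 1, gap at least 0.3, at least 3 markers in 20% of cells); vascular clusters were pooled and reclustered, a step chosen after seeing them. Unnamed clusters, mostly neuron-like ones, held 20.7 ± 4.20% of Control and 23.9 ± 0.975% of Sevoflurane cells. Free RNA was not corrected.

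Counts were summed per library and class, and a class was tested where no library had under 20 of its cells, with edgeR 4.0.16 (R 4.3.3): TMM normalization, filterByExpr, quasi-likelihood test and Benjamini-Hochberg adjustment over all genes of the class, at 0.05. The SE comes from the fold change and its F statistic. CPM is the sum over the UMI total of the library and class. Named were the 10 genes, in other classes where at 20 CPM or more or called, and of each list the called genes and the 3 most abundant others, except that 2 called genes of the lists, which stay in the counts, are not reported here. Abcb1b, Plvap, Icam1, Vcam1, Sele and Selp fall outside this rule and were chosen after their values were seen. Alternatives were DESeq2 1.42.0, its size factors, no filter on low counts, a replicate block, each library left out, doublets kept, resolution 2, a marker gate for each cell, a trend with genomic span removed and, added after seeing the data, the mixed sub-cluster left out. The procedure was tested on simulated data. The smallest endothelial sum had 232368 UMIs.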

Additional observations from a re-analysis of the deposited data

Results flagged for a closer look

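The sevoflurane effect on 2 of the genes differed between endothelial and ependymal cells by the interaction test (edgeR, library as a block, Benjamini-Hochberg adjusted over 9402 genes). Of all genes, 0.468% were called in this test. For Slc2a1 the log2 difference was 1.09 (SE 0.28, adjusted p = 0.0480). Endothelial levels lay higher in 3 of 3 Sevoflurane libraries than in any Control library, as for 8.96% of genes. Ependymal levels lay lower in 3 of 3, as for 6.88% of genes, and were not called (edgeR adjusted p = 0.591). The Slc2a1 difference was kept without Sevoflurane 1 and lost whichever of the other 5 libraries was left out. For Slc7a5 it was -2.80 (SE 0.56, adjusted p = 0.00808), where the ependymal levels rest on 0, 2 and 5 UMIs in Control and 15, 20 and 24 UMIs in Sevoflurane.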

How the results depend on the processing

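The endothelial share differed by -0.177 percentage points and by -0.554 to 0.259 with a library left out; it turned sign without Control 1 (0.259) and Sevoflurane 1 (0.253). Of all genes tested, 193 were called in endothelial cells, 82 to 236 with a library left out, 396 with no filter on low counts and 39 without the mixed sub-cluster. Of the 10 genes, 1 was called in endothelial cells and 0 to 1 with a library left out. The count was 2 with DESeq2, whose share over all genes is not given here. It was 0 with the replicate block or without the mixed sub-cluster. Of the genes of the lists, 15 were called, 6 to 16 with a library left out and 2 without the mixed sub-cluster. In other classes 1 of the 10 was called, 0 to 2 with a library left out, 0 with doublets kept or the trend with genomic span removed, and 2 with no filter. Differences between classes were called for 2 genes, 0 to 2 with a library left out. Over the alternatives the number of all genes called ran from 16 to 86 in ependymal cells and from 22 to 1241 in neurons. Apart from the fit without the mixed sub-cluster (0.906%), shares over all genes under the alternatives are not given here. The counts under those alternatives therefore have no background. Small effects of 3 genes turned sign: Cldn5 in endothelial cells ran from -0.64 to 0.082 with a library left out, Mfsd2a from -0.39 to 0.17 and Cdh5 from -0.26 to 0.036, and with doublets kept Mfsd2a was at 0.032 and Cdh5 at 0.0055. The cause of these changes was not tested, beyond fewer cells or libraries where some were left out. The labels give only a number and state no pairing. Deviations of libraries of the same number had correlations of -0.183, -0.0376 and 0.0671 over 6397 genes. With so few libraries these values cannot exclude a pairing or a shared batch. With the replicate block 143 genes were called and Slc2a1 had an edgeR adjusted p of 0.101. Endothelial depth, 232368 to 772510 UMIs per library, limits what could be detected for genes of low level.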
